A study of Mus musculus with 6 samples.

Results

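Mitochondrial ribosomal proteins are the protein parts of the ribosome that works inside mitochondria. The members were all genes whose symbol is Mrpl or Mrps followed by a number, pseudogenes left out. The deposited table held 55 of them among 13734 genes, with 34 of the large subunit (Mrpl) and 21 of the small subunit (Mrps). All 55 passed the filter of at least 1 CPM (counts scaled to library size) in no fewer than 3 libraries, as did 10054 genes in all. RefSeq lists 78 such genes in the mouse genome, and the other 23 were not analysed here. The members lie on 16 chromosomes, and their exons add up to a median of 1288 bases, from 492 (Mrps21) to 7605 (Mrpl17).

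The cells were white adipocytes made from 1 immortalized mouse subcutaneous preadipocyte line with both Dicer1 alleles floxed and a tamoxifen-activated Cre (Cre-ERT2). Dicer1 encodes the enzyme that cuts microRNAs out of their precursors. From day 6 of differentiation, DICER_KO cells (3 libraries) were given 4-hydroxytamoxifen at 10 µM for 48 h, and control cells (3 libraries) ethanol. All cultures were then stimulated for 6 h with 10 µM isoproterenol, a beta-adrenergic agonist, so both groups are stimulated cells with the floxed alleles and the Cre. The 4-hydroxytamoxifen was given to DICER_KO cells only, and its own effect and that of the deletion cannot be told apart. The labels call the libraries biological replicates without saying how the cultures were made, so the spread between libraries may be partly technical.

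The mitochondrial ribosome translates the few messages that mitochondrial DNA encodes, all of them for subunits of the respiratory chain and ATP synthase. Its RNA comes from mitochondrial DNA, while every one of its proteins is encoded in the nucleus, made in the cytosol and imported. The large subunit joins amino acids and holds the exit tunnel, and the small subunit decodes the message. Adipocytes need this machinery to build the respiratory chain that oxidizes fatty acids, most of all in thermogenic fat.

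Reads on the analysed genes ran from 13569034 to 30268077 per library, the most in DICER_KO replicate 3. Dicer1 stood at 6.14, 6.09 and 6.14 log2 CPM in the controls and at 5.43, 5.47 and 5.49 in DICER_KO, a fall of 0.66 (SE 0.10, limma adjusted p = 0.0150). That call was lost when any one library other than DICER_KO replicate 3 was left out (limma adjusted p from 0.0568 without DICER_KO replicate 1 to 0.147 without control 1), with the groups apart in every case. DICER_KO replicate 3 stood apart from the other DICER_KO libraries. The chi-square of their reads per degree of freedom was 85.5 and 92.8 against it and 8.36 between replicates 1 and 2. Between pairs of controls that value was 12.05 to 26.43. It grows with read depth, which was highest in DICER_KO replicate 3. The summed level of 10 adipocyte markers, all with a value, was 7118.8 to 9178.8 CPM in the controls. In DICER_KO it was 11693.0 and 11520.6 for replicates 1 and 2 but 3539.0 for replicate 3. The highest markers, Fabp4 and Lpl, weigh most in these sums. With replicate 3 left out, 8 of the 10 had a positive difference, while Lpl (-0.30) and Cd36 (-0.15) went the other way. In replicate 3 all 10 lay below every control, against 28.9% of all genes. The 12 preadipocyte and fibroblast markers summed to between 13592.0 and 15732.2 CPM in the controls and between 8955.3 and 9874.7 in DICER_KO. Of the 10 tested, 6 had all DICER_KO libraries below all controls, among them Col1a1, Col3a1 and Fn1, against 9.81% of all genes. Pdgfra, Pdgfrb, Cd34 and Ly6a differed by 0.03, 0.13, 0.10 and 0.18 without replicate 3, so the markers of a list did not move as 1. In replicate 3 all 10 tested preadipocyte and fibroblast markers lay below every control, as the adipocyte markers did. Macrophage markers (6 of 10 with a value) summed to 33.6 to 38.6 against 38.4 to 39.6 CPM, and endothelial markers (5 of 8) to 5.4 to 6.3 against 6.7 to 8.8. The tested genes of both lists went in both directions with all libraries, and none was called. Cd68 differed by 0.39, Csf1r by -0.16 and Cd14 by -0.17, while endothelial Tek differed by 0.67 and Kdr by -1.39. The macrophage markers Adgre1, Ptprc, Itgam and C1qa were not analysed here, Fcgr1 had 0 reads in DICER_KO replicates 1 and 2, and the endothelial marker Cdh5 had 0 in control 2. The part of these cell-state differences in the results below was not tested, and in bulk RNA fewer cells and less RNA per cell cannot be told apart. Most results are therefore given both with all 6 libraries and without DICER_KO replicate 3.

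The start regions of a few members, some with positive and some with negative differences, are printed below. Each is 300 bases from RefSeq (GRCm38.p6), written 5′ to 3′ on the gene's strand, from 250 bases before the annotated start to 50 after it. Capitals mark matches to 3 motifs searched on both strands: GCGCATGCG (NRF1), CCGGAAGT (ETS factors such as GABPA) and AAGATGGCG (YY1), all named in textbooks as factors of nuclear genes for mitochondria. The motif TCAAGGTCA (ERR receptors) was searched too and matched no member. Mrpl51 (chr6:125191950-125192249, + strand) and Mrpl27 (chr11:94653541-94653840, + strand) had 2 of the 3 largest positive differences within the large subunit, and each holds an ETS match, at base -90 and -55 from the start. Mrpl17 (chr7:105811038-105811337, - strand) and Mrps27 (chr13:99344536-99344835, + strand) were among the members with negative differences. Mrpl17 holds an NRF1 match at -11, and Mrps27 an ETS match at -49 and a YY1 match at 15. The window of Mrps11 (chr7:78782881-78783180, + strand) also spans the start of Mrpl46, which runs the other way from 42 bases before it, and holds a YY1 match at -108. Every printed window holds a match, against 19 of the 51 members with a listed start, so the printed windows do not stand for the members. No match was found for Mrpl34, Mrpl47 and Mrps36, with large positive differences, or for Mrpl44, Mrps30 and Mrps6, with the most negative ones.
Mrpl51: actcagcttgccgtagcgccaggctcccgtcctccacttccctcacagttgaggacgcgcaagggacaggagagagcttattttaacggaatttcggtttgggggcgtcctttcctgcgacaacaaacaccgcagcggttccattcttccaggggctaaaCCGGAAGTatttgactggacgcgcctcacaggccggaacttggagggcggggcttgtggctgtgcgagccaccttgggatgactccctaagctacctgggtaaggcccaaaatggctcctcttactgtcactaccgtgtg
Mrpl27: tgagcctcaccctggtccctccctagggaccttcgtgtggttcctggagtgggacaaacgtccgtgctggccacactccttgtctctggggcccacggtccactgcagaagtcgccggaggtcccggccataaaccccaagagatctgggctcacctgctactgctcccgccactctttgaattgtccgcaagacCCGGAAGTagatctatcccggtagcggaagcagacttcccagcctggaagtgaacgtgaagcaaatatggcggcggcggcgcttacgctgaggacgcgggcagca
Mrpl17: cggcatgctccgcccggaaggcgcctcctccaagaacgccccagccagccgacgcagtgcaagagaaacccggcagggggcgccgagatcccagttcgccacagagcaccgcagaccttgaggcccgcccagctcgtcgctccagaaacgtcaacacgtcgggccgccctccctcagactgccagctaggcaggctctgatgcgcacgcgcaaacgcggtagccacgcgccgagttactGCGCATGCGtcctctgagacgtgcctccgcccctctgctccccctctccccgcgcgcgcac
Mrps27: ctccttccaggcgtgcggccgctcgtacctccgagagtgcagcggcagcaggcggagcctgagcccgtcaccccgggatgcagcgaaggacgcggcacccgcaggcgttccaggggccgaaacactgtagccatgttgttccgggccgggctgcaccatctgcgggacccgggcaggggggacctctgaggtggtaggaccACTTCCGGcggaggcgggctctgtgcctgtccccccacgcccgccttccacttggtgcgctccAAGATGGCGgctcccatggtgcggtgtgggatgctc
Mrps11: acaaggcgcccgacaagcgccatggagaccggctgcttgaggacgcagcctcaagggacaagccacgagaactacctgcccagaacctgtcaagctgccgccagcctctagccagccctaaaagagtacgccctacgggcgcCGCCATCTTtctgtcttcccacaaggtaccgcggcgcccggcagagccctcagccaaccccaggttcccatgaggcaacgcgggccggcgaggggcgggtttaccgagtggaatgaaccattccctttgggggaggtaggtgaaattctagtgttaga

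A match to any of the 4 motifs stood in the window of 19 of the 51 members with a listed start (37.3%), in 12 of 32 large-subunit and 7 of 19 small-subunit genes. Of the 7932 tested genes with a window 15.0% held one, and among all 27025 genes with a RefSeq window the share was 7.93%. For a gene with several windows, a match in any of them counted. NRF1 matched 5 members (9.80%, against 3.79% of tested genes), and ETS 8 members (15.7% against 8.57%). YY1 matched 7 members (13.7% against 3.16%), and 5 of these 7 matches lay after the start: Mrpl35 (24), Mrpl42 (28), Mrps18a (12), Mrps24 (37) and Mrps27 (15). ERR matched 0.366% of tested genes. No 2 matches to different motifs overlapped in a member's window. The members' windows were as rich in CpG as those of tested genes, with a median of 21 against 22. A match is a string of letters and not evidence of binding. The 8 members with an ETS match had a median difference of 0.15 log2 units and the 43 without it 0.16 (0.21 and 0.24 without DICER_KO replicate 3). For YY1 the medians were 0.12 (7 members) and 0.16 (44), or 0.17 and 0.23 without that library. For NRF1 they were 0.01 (5) and 0.17 (46), or 0.05 and 0.24, so members with a match did not have the higher median for any of these motifs.

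With all 6 libraries the members stood a little higher in DICER_KO than in control, and no single member passed the test. The median difference over the 55 members was 0.16 on the log2 CPM scale, against 0.02 over all 10054 genes tested. The difference was positive for 46 of 55, with a range from -0.12 (Mrps30) to 0.46 (Mrpl51). Limma called 0 members at an adjusted p of 0.05, and the smallest adjusted p was 0.20 (Mrpl51). At an unadjusted p under 0.05 there were 9 members higher (16.4%, against 8.49% of all genes) and 0 lower (against 7.35%). At the adjusted threshold the same fit called 0.149% of all genes higher and 0.288% lower, so few genes of any kind passed. All 3 DICER_KO libraries lay above all 3 controls for 10 members (Mrpl2, Mrpl14, Mrpl27, Mrpl40, Mrpl49, Mrpl55, Mrpl58, Mrps15, Mrps21 and Mrps33), which is 18.2% of them against 10.4% of all genes. The groups were separated in the other direction for 0 members, against 9.81% of all genes.

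With DICER_KO replicate 3 left out, a choice made after it was seen to stand apart, limma called 11 members higher and 0 lower. They were Mrpl1, Mrpl27, Mrpl34, Mrpl35, Mrpl42, Mrpl46, Mrpl47, Mrpl51, Mrpl58, Mrps34 and Mrps36, with differences from 0.34 to 0.61. That is 20.0% of the members, against 12.5% of all genes called higher and 7.22% called lower in the same fit. Among the 5243 genes in the members' span of control levels (3.70 to 6.80 log2 CPM) 13.8% were called higher. The members' median difference became 0.22, with 49 of 55 positive, while that of all genes stayed at 0.02. DICER_KO replicates 1 and 2 lay above all controls for 35 members (63.6%, against 28.2% of all genes) and below them for 0 (against 23.5%). With 5 libraries separation is easier to reach than with 6, and the background shares rise with it.

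**Figure D1:**
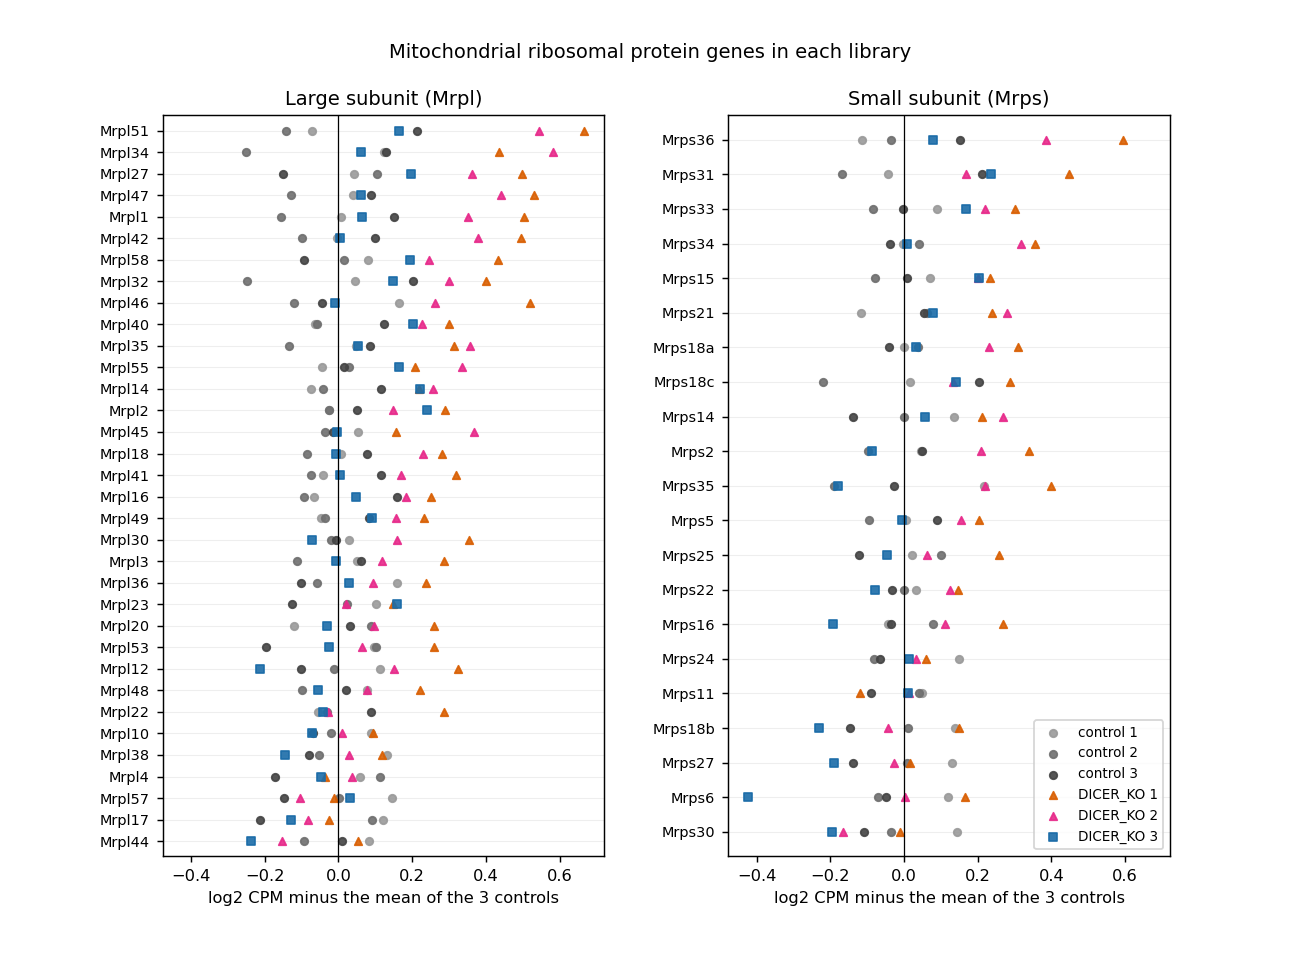
Level of each mitochondrial ribosomal protein gene in each library, as log2 CPM minus the mean of the 3 controls, ordered by the DICER_KO minus control difference. DICER_KO replicates 1 and 2 (triangles) lie to the right of the controls for most genes, while DICER_KO replicate 3 (squares) lies within the range of the controls for 32 of 55.

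The 3 DICER_KO libraries were far from equal. Measured against the mean of the controls, the members' median was 0.26 in DICER_KO replicate 1, 0.16 in replicate 2 and 0.01 in replicate 3. In the controls it was 0.05, -0.04 and 0.00, so replicate 3 sat at the level of the controls. In replicate 3, 12 members lay above all controls (21.8%, against 28.8% of all genes), 11 below all of them (20.0%, against 28.9%) and 32 between (58.2%, against 42.3%). Replicate 3 had the lowest of the 3 DICER_KO values for 47 members (85.5%, against 40.6% of all genes). Of the 11 members called without it, replicate 3 lay above the controls for 2 (Mrpl27 and Mrpl58) and within their range for 9. The same library held the lowest adipocyte marker sum, and the part of that difference was not tested.

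**Figure D2:**
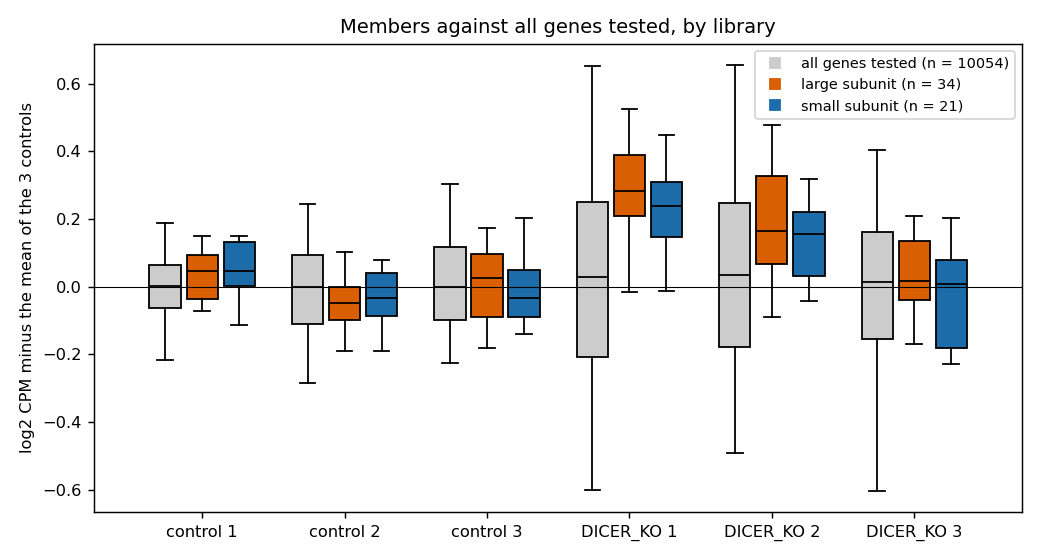
Distribution over genes of log2 CPM minus the mean of the 3 controls, by library, for all genes tested, the large subunit and the small subunit (line: median; box: quartiles; whiskers: 5th to 95th percentile). In DICER_KO replicate 1 the lower quartile of the large subunit (0.21) lies above 0, and in replicate 3 both subunits are centred near 0.

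Mrpl51, a mitochondria-specific protein of the large subunit, had the largest difference. It stood at 5.86, 5.79 and 6.15 log2 CPM in the controls and at 6.60, 6.48 and 6.10 in DICER_KO, a difference of 0.46 (SE 0.15, limma adjusted p = 0.20). Replicates 1 and 2 were above every control, while replicate 3 was below control 3. Leaving out replicate 3 gave a rise of 0.61 (limma adjusted p = 0.00185), the smallest p among the members.

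Mrpl27 belongs to a family of proteins that reach toward the centre where peptide bonds form. Its controls were 5.40, 5.46 and 5.21 log2 CPM and its DICER_KO libraries 5.86, 5.72 and 5.55. All DICER_KO values were above all controls, with a difference of 0.35 (SE 0.12, limma adjusted p = 0.23) and of 0.43 without replicate 3 (adjusted p = 0.0130). Mrpl58, also known as ICT1, is a peptidyl-tRNA hydrolase that frees stalled ribosomes. It read 5.13, 5.06 and 4.95 in the controls and 5.48, 5.29 and 5.24 in DICER_KO, again with no overlap. Its difference was 0.29 (SE 0.11, limma adjusted p = 0.27), and 0.34 without replicate 3 (adjusted p = 0.0426).

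Mrpl34 and Mrpl47, both related to bacterial ribosomal proteins, followed Mrpl51 rather than Mrpl27, with replicate 3 back among the controls. Mrpl34 stood at 4.99, 4.61 and 4.99 log2 CPM in the controls and at 5.30, 5.45 and 4.92 in DICER_KO. The difference was 0.36 (SE 0.16), and it rose by 0.51 without replicate 3 (limma adjusted p = 0.0116). Mrpl47 stood at 4.15, 3.98 and 4.20 in the controls and at 4.64, 4.55 and 4.17 in DICER_KO. That made 0.34 (SE 0.15) with all libraries and 0.49 without replicate 3 (limma adjusted p = 0.0114).

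At the other end of the large subunit, 4 members had a negative difference and none passed. Mrpl44, which has the fold of an RNase III, stood at 5.13, 4.95 and 5.05 log2 CPM in the controls and at 5.10, 4.89 and 4.81 in DICER_KO, a difference of -0.11 (SE 0.12), or -0.05 without replicate 3. Mrpl17 read 6.08, 6.05 and 5.75 in the controls and 5.94, 5.88 and 5.83 in DICER_KO, all within the range of the controls. Mrpl57 read 5.28, 5.13 and 4.98 against 5.12, 5.03 and 5.16. Their differences were -0.08 and -0.03 (-0.05 and -0.06 without replicate 3), smaller than the spread of either gene's controls (SD 0.18 and 0.15).

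The stalk of the large subunit, which recruits translation factors, was represented by Mrpl12 and Mrpl10. Mrpl12, also known to bind the mitochondrial RNA polymerase, had controls at 6.92, 6.79 and 6.70 log2 CPM and DICER_KO libraries at 7.13, 6.95 and 6.59. Replicates 1 and 2 were above every control and replicate 3 below every control, and the difference was 0.09 (SE 0.14), or 0.24 without replicate 3 (limma adjusted p = 0.114). Mrpl10 read 6.40, 6.29 and 6.24 in the controls and 6.40, 6.32 and 6.24 in DICER_KO. Its difference was 0.01 (SE 0.10), or 0.05 without replicate 3, and its sign turned with the scaling. Mrpl2, a core protein near the catalytic centre, stood at 5.76, 5.76 and 5.84 in the controls and 6.08, 5.94 and 6.03 in DICER_KO. Its groups did not overlap and differed by 0.23 (SE 0.10, limma adjusted p = 0.30), or 0.22 without replicate 3, and replicate 3 lay between the other DICER_KO libraries. Mrpl45, which ties the ribosome to the inner membrane near the exit tunnel, read 5.92, 5.83 and 5.85 in the controls and 6.02, 6.23 and 5.86 in DICER_KO. It differed by 0.17 (SE 0.12), and by 0.26 without replicate 3 (limma adjusted p = 0.0861).

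In the small subunit the smallest p belonged to Mrps36, Mrps31, Mrps15 and Mrps33. Mrps36 stood at 3.77, 3.85 and 4.04 log2 CPM in the controls and at 4.48, 4.27 and 3.96 in DICER_KO, a difference of 0.35 (SE 0.15, limma adjusted p = 0.30). Replicate 3 alone lay among the controls, and with that library left out Mrps36 rose by 0.49 (limma adjusted p = 0.0163). Despite its symbol, the Mrps36 product is now known as a part of the 2-oxoglutarate dehydrogenase complex of the citric acid cycle. Mrps34, a true small-subunit protein, was the other one called without replicate 3. It stood at 4.79, 4.84 and 4.76 in the controls and at 5.15, 5.11 and 4.80 in DICER_KO. With all libraries it differed by 0.23 (SE 0.12), and without replicate 3 it rose by 0.34 (limma adjusted p = 0.0369).

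Mrps31 read 4.55, 4.42 and 4.80 log2 CPM in the controls and 5.04, 4.76 and 4.83 in DICER_KO, where replicate 2 was below control 3. The difference was 0.28 (SE 0.13), or 0.31 without replicate 3. Mrps15, a relative of the bacterial protein S15, read 5.31, 5.16 and 5.25 against 5.47, 5.44 and 5.44. Its DICER_KO libraries were nearly equal (SD 0.02) and all above the controls, with a difference of 0.21 (SE 0.10, limma adjusted p = 0.33), or 0.22 without replicate 3. Mrps33 read 3.79, 3.62 and 3.70 against 4.01, 3.92 and 3.87, also separated, with a difference of 0.23 (SE 0.12), or 0.26 without replicate 3. It is the lowest member on the log2 CPM scale.

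The most negative differences of the small subunit were those of Mrps30, Mrps6 and Mrps27. Mrps30, whose product sits in the large subunit despite its symbol, stood at 5.97, 5.79 and 5.72 log2 CPM in the controls and at 5.82, 5.66 and 5.63 in DICER_KO, a difference of -0.12 (SE 0.11), or -0.09 without replicate 3. Mrps6 stood at 6.28, 6.09 and 6.11 against 6.32, 6.16 and 5.74. Its sign rested on replicate 3: -0.09 with it and 0.08 without it. Of the exon bases of Mrps6 36.1% are shared with other annotated genes, among them Slc5a3. Mrps27, an RNA-binding PPR protein, stood at 5.34, 5.22 and 5.07 against 5.23, 5.18 and 5.02, a difference of -0.07 (SE 0.12), or -0.01 without replicate 3.

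Other small-subunit genes with known roles were not called either, with or without replicate 3. Mrps2 and Mrps5 are relatives of bacterial core proteins. Mrps2 read 5.73, 5.59 and 5.74 log2 CPM in the controls and 6.02, 5.90 and 5.60 in DICER_KO, a difference of 0.15 (SE 0.13), or 0.27 without replicate 3 (limma adjusted p = 0.0753). Mrps5 read 5.45, 5.35 and 5.54 against 5.65, 5.60 and 5.44, a difference of 0.12 (SE 0.11), or 0.18 without replicate 3. In both genes replicates 1 and 2 were above every control and replicate 3 was not.

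Mrps16 and Mrps22 are both known as genes of inherited respiratory chain disease. Mrps16 read 5.38, 5.50 and 5.39 log2 CPM in the controls and 5.69, 5.53 and 5.23 in DICER_KO. Its difference was 0.06 (SE 0.13) with all libraries and 0.19 without replicate 3 (limma adjusted p = 0.207). Mrps22 read 4.99, 4.95 and 4.92 against 5.10, 5.08 and 4.88, a difference of 0.06 (SE 0.11), or 0.14 without replicate 3 (limma adjusted p = 0.370). In both, replicates 1 and 2 lay above every control and replicate 3 below every control.

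The S18 family has 3 copies in the nuclear genome. Mrps18a, whose product sits in the large subunit, read 5.68, 5.72 and 5.64 log2 CPM in the controls and 5.99, 5.91 and 5.71 in DICER_KO, a difference of 0.19 (SE 0.11), or 0.27 without replicate 3. Mrps18c read 5.31, 5.07 and 5.50 against 5.58, 5.42 and 5.43, a difference of 0.19 (SE 0.13), or 0.21 without replicate 3. Mrps18b, which shares 59.1% of its exon bases with an antisense gene, read 5.55, 5.42 and 5.27 against 5.56, 5.37 and 5.18. Its difference was -0.04 (SE 0.13), or 0.05 without replicate 3, and the differences between the copies were not tested.

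The 2 subunits were close to each other in their differences. The median was 0.16 for the 34 large-subunit members and 0.15 for the 21 small-subunit members, a gap of 0.02. The ranges were -0.11 to 0.46 and -0.12 to 0.35. Positive differences numbered 30 of 34 and 16 of 21. Without replicate 3 the medians were 0.24 and 0.21. Limma then called 9 large-subunit members (26.5%) and 2 small-subunit members (9.52%) higher, against 12.5% of all genes. The small-subunit share was thus no higher than that of all genes, and its calls include Mrps36, whose product is placed outside the ribosome above. The difference between those shares was not tested. By library the large subunit stood at 0.28, 0.16 and 0.02 in DICER_KO replicates 1 to 3 and the small subunit at 0.24, 0.16 and 0.01, so both followed the same order.

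The summed CPM of each subunit gives its share of the reads, not corrected for exon length, so longer genes weigh more. The large subunit summed to 1501 ± 40.0 CPM in the controls and 1679 ± 155 in DICER_KO (SD, n = 3), a ratio of 1.12, or 1.17 for replicates 1 and 2. The small subunit summed to 771 ± 27.6 and 823 ± 78.3 CPM, a ratio of 1.07, or 1.12 for replicates 1 and 2. Together the members summed to 2338.9, 2207.8 and 2267.5 CPM in the controls and to 2713.9, 2539.6 and 2252.7 in DICER_KO, where replicate 3 lay within the controls. The quotient of large over small was 1.92, 1.94 and 1.98 in the controls and 2.03, 2.04 and 2.05 in DICER_KO, 1.95 ± 0.03 against 2.04 ± 0.01 (SD, n = 3). It was thus 1.05 times higher in DICER_KO, without overlap, and replicate 3 was the highest library. A difference of that size is a few percent, it was chosen for report after the values were seen, and no test was made of it.

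The quotient depends on which genes are counted. In all, 5 members share over 20% of their exon bases with another annotated gene: Mrpl53 (100%), Mrps18b (59.1%), Mrps25 (58.2%), Mrps6 (36.1%) and Mrps27 (22.6%), and the counting is not stated to use strand. Without these 5, 4 of them in the small subunit, the quotient was 2.47, 2.49 and 2.49 in the controls and 2.56, 2.54 and 2.51 in DICER_KO. That is 1.02 times higher, still without overlap, and the gap of the medians became -0.01. With Mrps30 and Mrps18a counted in the large subunit, where their products sit, and Mrps36 left out, the quotient was 2.48 ± 0.03 against 2.58 ± 0.01, or 1.04 times higher.

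**Figure D3:**
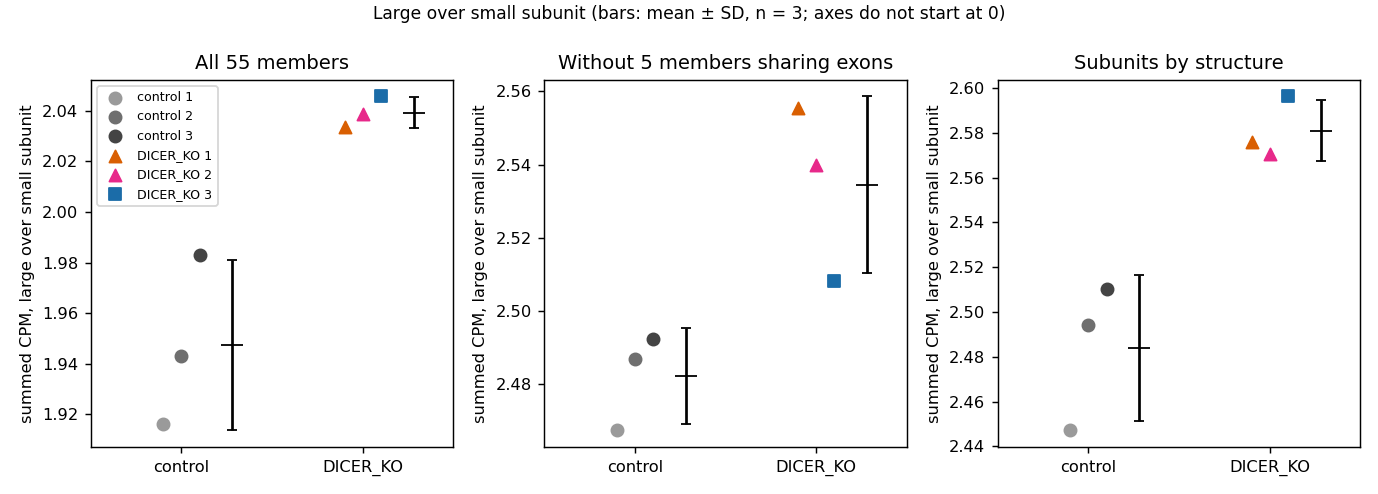
Summed CPM of the large subunit over that of the small subunit in each library, for all 55 members, without the 5 members that share over 20% of their exon bases, and with subunits assigned by structure (points: libraries; bars: mean ± SD, n = 3; the axes do not start at 0). The groups do not overlap in any panel, and the DICER_KO means are 1.05, 1.02 and 1.04 times those of the controls.

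The members differed widely in level and little in their differences. Per kilobase of exon, the control level ran from 4.49 CPM (Mrps25) to 85.0 (Mrpl12), with Mrps6 (84.6) and Mrps21 (70.6) next to the top. The median was 29.0 CPM per kilobase for the large subunit and 24.8 for the small. Differences between DICER_KO and control had an SD of 0.13 over the members, against 0.24 over the genes in the same span of levels. Short genes as a class also stood higher in DICER_KO: coding genes with up to 1000 exon bases (391) had a median difference of 0.10, and the 17 members among them 0.19 (0.15 and 0.24 without replicate 3). For 2000 to 4000 bases the medians were -0.01 (3720 genes) and 0.18 (11 members), and -0.01 and 0.27 without replicate 3. Above 4000 bases they were 0.04 (3665 genes) and 0.12 (7 members), and 0.04 and 0.18 without it.

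Many members start back to back with another gene. A protein-coding neighbour that starts on the other strand within 1000 bases was found for 18 of 51 members (35.3%), 13 in the large and 5 in the small subunit. The same held for 13.1% of 7622 tested coding genes. The gap had a median of 150 bases and ran from 42 to 935. For the 14 members whose neighbour was tested, the median difference was 0.16, and 0.23 without DICER_KO replicate 3. Their neighbours had medians of 0.04 and 0.00. Without replicate 3 the member's difference was above its neighbour's in 9 of 14, with Mrpl46 and Mrps11 counted from both sides. The neighbour's was higher for Mrpl2 (Klc4), Mrpl41 (Pnpla7), Mrpl47 (Ndufb5), Mrps27 (Ptcd2) and Mrps11 (Mrpl46). No neighbour passed with all libraries. In the fit without replicate 3, which called 12.5% of all genes higher, 2 of the 14 were higher: Ndufb5 and Mrpl46, the latter itself a member.

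The closest pair is made of 2 members. Mrpl46 and Mrps11, whose shared start region is printed above, begin 42 bases apart. Mrpl46 stood at 4.43, 4.15 and 4.22 log2 CPM in the controls and at 4.79, 4.53 and 4.26 in DICER_KO, a difference of 0.26 (SE 0.15), and it rose by 0.39 without replicate 3 (limma adjusted p = 0.0448). Mrps11 stood at 4.85, 4.84 and 4.72 against 4.68, 4.82 and 4.81, a difference of -0.03 (SE 0.11), or -0.05 without replicate 3. The difference between the 2 genes was not tested. Mrpl51 and Ncapd2, a condensin subunit, differed by 0.61 and 0.02 without replicate 3, and Mrpl27 and Eme1, a DNA repair nuclease subunit, by 0.43 and -0.01. Mrpl47 and Ndufb5, a complex I subunit, both rose without replicate 3, by 0.49 (limma adjusted p = 0.0114) and 0.52 (adjusted p = 0.00275). Of the exon bases of Mrpl47, 18.1% are shared with antisense genes, Ndufb5 among them. The counting is not stated to use strand, so the 2 genes may share reads. Mrpl49 and Fau, which encodes a cytosolic ribosomal protein, differed by 0.20 and -0.21, neither past the threshold.

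**Figure D4:**
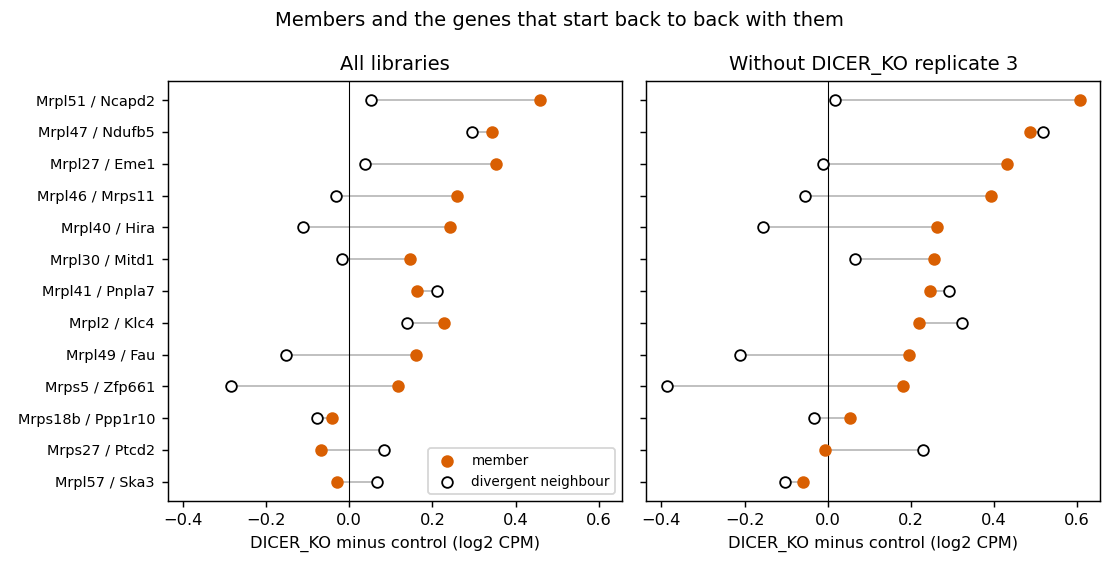
DICER_KO minus control difference (log2 CPM) of members (filled) and of the coding gene that starts within 1000 bases on the other strand (open), for pairs with both genes tested, with all libraries and without DICER_KO replicate 3. Without replicate 3 Mrpl51, Mrpl27 and Mrpl46 lie far to the right of their neighbours and Mrpl47 close to Ndufb5, while Klc4, Pnpla7 and Ptcd2 lie to the right of their members.

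The rest of the mitochondrial translation machinery was compared by lists, with 0 genes of each called when all libraries were used. Translation factors (9 tested) had a median difference of 0.10, and 0.21 without replicate 3, where Gfm2, a ribosome recycling factor, rose by 0.35 (limma adjusted p = 0.0274). With all libraries the smallest p among them was that of the initiation factor Mtif2, at 0.27 (adjusted p = 0.38). Mitochondrial tRNA synthetases (16 tested) had medians of 0.09 and 0.11. Iars2, the isoleucine enzyme, rose by 0.40 without replicate 3 (limma adjusted p = 0.00915). That fit called 12.5% of all genes higher, and 1 of 9 translation factors and 1 of 16 synthetases are no larger shares than that. Lars2, the leucine enzyme, had the smallest p with all libraries, at -0.25 (adjusted p = 0.26). Its values were 6.75, 6.76 and 6.63 log2 CPM in the controls and 6.49, 6.44 and 6.46 in DICER_KO.

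Assembly factors of the mitochondrial ribosome (18 tested) had medians of 0.03 and 0.06 with 0 called in either fit, and the smallest p was that of Rpusd4, an RNA pseudouridine synthase, at -0.25 (limma adjusted p = 0.37). Of ribosomal proteins with other symbols, Ptcd3 differed by 0.12 and Gadd45gip1 by -0.05. Genes of mitochondrial DNA transcription and maintenance (13 tested) had medians of 0.03 and 0.05 with 0 called in either fit, and the smallest p was that of the DNA polymerase gene Polg, at -0.19 (limma adjusted p = 0.35).

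Complex I of the respiratory chain, part of which this ribosome makes, and the cytosolic ribosome were the nearest comparators. Complex I (38 nuclear genes) had a median difference of 0.28, with 37 positive, and 0.47 without replicate 3. That second fit called 33 higher and 1 (Ndufa4l2) lower, against 12.5% and 7.22% of all genes. The whole list was made by symbol, so it may hold genes whose products are not part of complex I, such as Ndufa4 and Ndufa4l2. Cytosolic ribosomal proteins (59 tested) had medians of -0.15 and -0.18, with 0 and 8 called lower, against 0.288% and 7.22% of all genes. In DICER_KO replicates 1 to 3 the complex I median was 0.50, 0.43 and -0.07 above the mean of the controls, the members' was 0.26, 0.16 and 0.01, and that of cytosolic ribosomal proteins was -0.17, -0.19 and -0.07. These comparisons share all libraries with that of the members, and the differences between lists were not tested.

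**Figure D5:**
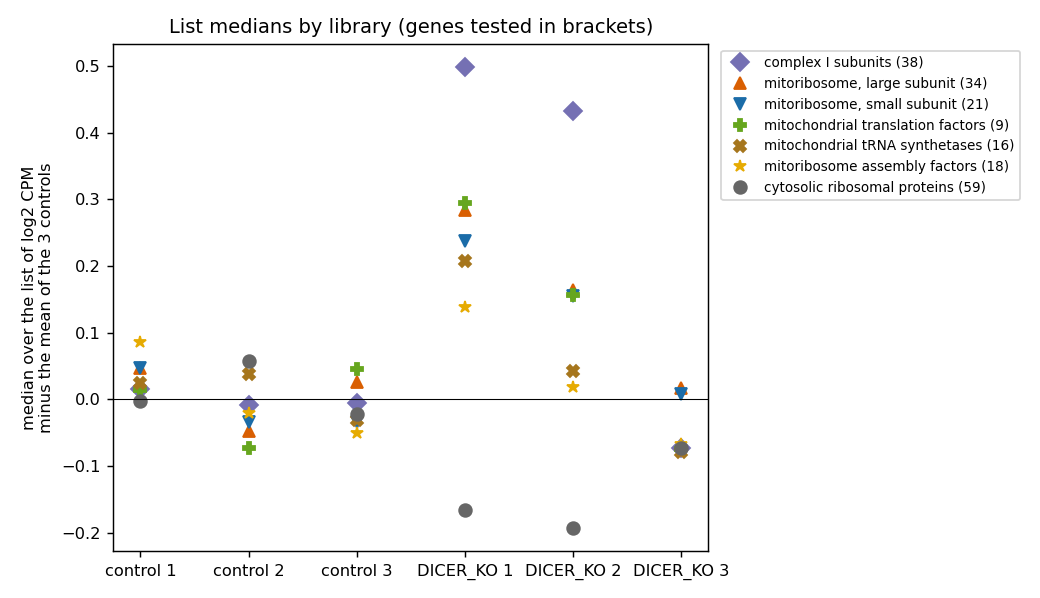
Median over each list of log2 CPM minus the mean of the 3 controls, by library, with the number of genes tested in brackets. In DICER_KO replicates 1 and 2 complex I is highest (0.50 and 0.43), cytosolic ribosomal proteins are lowest (-0.17 and -0.19) and both mitochondrial ribosome subunits lie between. In replicate 3 all lists lie between -0.08 and 0.02.

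Among 9 regulators of nuclear genes for mitochondria, limma called 0 with all libraries. Leaving out replicate 3 gave 3 called higher and 2 lower, against 12.5% and 7.22% of all genes. Ppargc1a, the coactivator PGC-1alpha, read 3.36, 3.04 and 3.28 log2 CPM in the controls, and 4.48, 4.49 and 2.60 after the knockout. Replicates 1 and 2 were above every control and replicate 3 below every control, and the rise was 1.26 when replicate 3 was left out (limma adjusted p = 1.70e-05). Ppargc1b had the same order, with 4.87, 5.06 and 4.93 against 6.00, 6.15 and 4.48, and rose by 1.12 without replicate 3 (limma adjusted p = 5.18e-06). Esrra rose by 0.36 without replicate 3 (limma adjusted p = 0.0210). Pprc1 and Myc fell by 0.49 and 0.41 without replicate 3 (limma adjusted p = 0.00768 and 0.0120). Of these factors with a searched motif, only Esrra was called, and only without replicate 3. In that fit Nrf1 differed by -0.14, Gabpa by 0.36 (limma adjusted p = 0.0556) and Yy1 by 0.05, and none of them was called.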

How the data were processed

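The authors deposited 1 log2 CPM value per gene and library, from poly(A) RNA sequenced as read pairs. Tools named in the submitters' processing notes are HISAT2, featureCounts, edgeR, FastQC and Trimmomatic, with the builds mm10 and GRCm38 and no versions, and strand counting is not given in the sources used here. Every value was the log2 of (k + 0.5) reads over a library size (100% whole at a tolerance of 0.01), so whole reads were recovered for sums of CPM and for limma-voom. The table had 0 columns of other samples. Entrez numbers were matched to RefSeq symbols (13682 of 13734), and lists by symbol (123 of 160 entries). Exon lengths and shared exon bases come from GENCODE M21.

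Differences are DICER_KO minus control from limma 3.58.1 (R 4.3.3) with an intensity trend on the deposited log2 values, group as the only term, with Benjamini-Hochberg adjustment over the 10054 genes that reached 1 CPM in 3 or more libraries, and a threshold of 0.05. The same limma call was run on simulated reads with planted changes larger than those of the members. Those reads had the same dispersion for every gene and no library that stood apart, so the check does not cover such a library. Replicate numbers were not used to pair the samples in the main fit, and the labels do not state a pairing. All members may be named. Library values are given by rule for the 4 smallest p, 3 largest and 3 most negative differences of each subunit and for the members whose role is described. Pathway genes are named where past the threshold or of smallest p. Mrps34, Mrpl46 and Mrps11 and the neighbours named beside members were singled out after their values were seen. Members and lists were chosen with earlier results of these data known. The fit without DICER_KO replicate 3 was put beside the main fit after that library was seen to stand apart, so its adjusted p-values are descriptive. Alternatives changed scaling, filter, pseudocount, test, replicate block and libraries. Alternatives that dropped members with shared exons or set subunits by structure, and the quotient of summed CPM, were chosen after seeing the data. Sums, promoter searches and figures were made in Python 3.11.15 with numpy 2.4.6, pandas 2.3.3 and matplotlib 3.10.9.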

Additional observations from a re-analysis of the deposited data

How the results depend on the processing

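Under 10 changes of scaling, filter, pseudocount, test or replicate block, limma called 0 members in either direction, and 542 of 550 such values for single members kept their direction and call. Leaving out each library in turn gave 0 to 11 members called higher (0 to 9 large, 0 to 2 small), 0 to 1 translation factors, 0 to 1 tRNA synthetases, 0 to 33 complex I subunits higher and 0 to 1 lower, 0 to 8 cytosolic ribosomal proteins lower, and 0 to 3 regulators higher and 0 to 2 lower. All of these calls came without DICER_KO replicate 3, where calls over all genes were 1983 against 44. The gap between subunit medians, 0.02 with all libraries, was 0.0256 to 0.0728 with 1 library left out and -0.0147 without members that share exon bases, where the quotient of summed CPM was 1.02 in place of 1.05. The Dicer1 difference of -0.66 had an adjusted p of 0.0635 without the intensity trend and 0.119 (difference -0.66) with the replicate block. With 1 library left out it was -0.68 to -0.64, with adjusted p from 0.0568 to 0.147 except without DICER_KO replicate 3. The replicate block left 2 genes called of 44. The deviations of same-numbered libraries had correlations of 0.20, -0.01 and -0.08, the first being the largest of any control with any DICER_KO library. Control 2 went best with DICER_KO replicate 3 (0.17), not with its own number. With 3 libraries a group these values cannot decide whether the cultures were paired. Signs turned for members near 0. Under median-of-ratios, quantile and upper-quartile scaling Mrpl10 was -0.0158, -0.0259 and -0.0203 and Mrpl38 -0.0262, -0.0457 and -0.0306 (-0.00566 with limma-voom), and Mrps24 was -0.00472 with quantile scaling. With 1 library left out the differences ran from -0.102 to 0.041 for Mrpl4, from -0.0311 to 0.0552 for Mrpl10, from -0.0300 to 0.238 for Mrpl12, from -0.0346 to 0.129 for Mrpl22, from -0.0587 to 0.0728 for Mrpl38, from -0.103 to 0.0444 for Mrpl57, from -0.21 to 0.0834 for Mrps6, from -0.0771 to 0.0109 for Mrps11, from -0.0394 to 0.191 for Mrps16, from -0.136 to 0.0529 for Mrps18b and from -0.00622 to 0.109 for Mrps24. The cause of these changes was not tested. With 3 libraries a group, the members' standard errors of 0.0985 to 0.162 set the precision.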
